A study of Mus musculus with 8 samples.

Results

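The nuclear genes of the mitochondrial respiratory chain were examined in dorsal cortex of mouse embryos at E15.5, in libraries labelled ErbB4+/+ and ErbB4-/-. The genes were taken by symbol alone, as every symbol that begins with Nduf followed by a, b, c, s or v and a digit (complex I), the 4 Sdh subunit symbols (complex II), Uqcr (complex III), Cox followed by a digit from 4 to 8 (complex IV) or Atp5 (complex V). Of 23284 symbols in the count files, 85 matched, and 80 of these had at least 10 counts in at least 4 libraries. They comprise 36 of 37 symbols for complex I, 4 of 4 for complex II, 8 of 8 for complex III, 15 of 19 for complex IV and 17 of 17 for complex V. The 5 symbols below that level were Ndufs5, Cox6a2, Cox7b2, Cox8b and Cox8c, none with more than 4 counts in a library. The symbol rule takes in Cox4nb, which encodes a subunit of the endoplasmic reticulum membrane protein complex, Cox7a2l, a supercomplex assembly factor, and Atp5s and Atp5sl, which are not subunits of the assembled enzyme. Ndufa4 is listed with complex I by its symbol, although its protein is now assigned to complex IV.

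Cortical hemispheres were dissected free of meninges and ganglionic eminences, and polyA-selected, non-strand-specific cDNA was sequenced for 4 libraries of each genotype. ErbB4 is a receptor tyrosine kinase whose loss is lethal to the embryo through the heart. The study states that work on knockouts of ErbB4 has relied on rescue by an ErbB4 transgene active in the heart (alpha-MHC promoter). The lines were bred as homozygotes, the sources used here name no litter or embryo sex for any library, and p-values therefore measure the spread between these samples. Between 28205703 and 48871480 reads were counted per library, and values are given as CPM, counts scaled to library size after TMM normalization (factors from 0.994 to 1.01). Xist, transcribed from the inactive X chromosome, was at 983 to 1690 CPM in ErbB4+/+ replicates 1 to 3 and at 2.70 to 3.82 CPM in ErbB4+/+ replicate 4 and all 4 libraries labelled ErbB4-/-, so genotype was largely confounded with this sex-linked pattern. Erbb4 itself was at 8.99 to 25.3 CPM in the ErbB4+/+ libraries and at 20.7 to 24.6 CPM in those labelled ErbB4-/- (log2 fold change 0.28, edgeR adjusted p = 0.812, and 0.06 without ErbB4+/+ replicate 1). These counts cover the whole gene, the position of the change in the null allele was not used here, and they do not check the labels. Summed CPM of 7 cortical neuron markers was 7153 to 7335 in the ErbB4+/+ libraries and 7218 to 7665 in those labelled ErbB4-/-. The 8 cortical progenitor markers sum to 1932 to 2313 and 1813 to 2172 CPM, with a log2 fold change below 0 in 8 of 8 and 0 called. The 10 red blood cell markers sum to 58.1 CPM in ErbB4+/+ replicate 1, the highest library, and to 23.2 to 36.7 CPM in those labelled ErbB4-/-, with Hba-a1, Hba-a2 and Hbb-b2 at 0 throughout. The part of either cell type in the results on the chain was not tested.

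Electrons from NADH enter the respiratory chain at complex I and those from succinate at complex II. They pass through complex III to complex IV, which reduces oxygen, and complexes I, III and IV move protons across the inner mitochondrial membrane. Complex V, the ATP synthase, uses the proton gradient to make ATP. Most subunits are encoded in the nucleus and a small core in mitochondrial DNA. No symbol searched for the mitochondrially encoded genes was in the count files, so these genes were not analysed here.

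Several of these small genes have processed copies elsewhere in the genome, which bears on how reads can be assigned to them. Each coding transcript (the one with the longest coding sequence, GENCODE annotation of NCBIM37, mm9) was cut into windows of 50 nucleotides, the read length, and each window was looked for letter by letter on both strands of mm9. Of the 80 genes, 45 had no coding window that occurs elsewhere, and 12 (15% of the 80, against 3.57% of all genes examined) had more than 50% of their coding windows elsewhere. The coding sequences of 3 genes are shown as examples with all, part or none of their coding windows elsewhere. Of these, Ndufs5 is not among the 80. The sequences are given on the coding strand with capitals for bases inside a coding window that also occurs at another place.
Cox7c: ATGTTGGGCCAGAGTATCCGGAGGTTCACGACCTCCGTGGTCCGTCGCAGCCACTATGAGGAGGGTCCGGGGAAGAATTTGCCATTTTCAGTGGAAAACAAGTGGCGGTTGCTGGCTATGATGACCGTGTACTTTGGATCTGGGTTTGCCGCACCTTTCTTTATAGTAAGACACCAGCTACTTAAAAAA
Ndufs5: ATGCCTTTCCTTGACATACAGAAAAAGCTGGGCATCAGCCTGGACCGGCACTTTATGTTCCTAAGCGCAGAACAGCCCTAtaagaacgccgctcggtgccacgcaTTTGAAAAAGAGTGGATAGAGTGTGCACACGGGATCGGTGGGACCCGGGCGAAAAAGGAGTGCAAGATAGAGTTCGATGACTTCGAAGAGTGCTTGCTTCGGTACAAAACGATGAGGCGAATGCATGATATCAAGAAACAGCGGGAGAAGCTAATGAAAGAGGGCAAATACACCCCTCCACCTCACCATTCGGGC
Cox6b1: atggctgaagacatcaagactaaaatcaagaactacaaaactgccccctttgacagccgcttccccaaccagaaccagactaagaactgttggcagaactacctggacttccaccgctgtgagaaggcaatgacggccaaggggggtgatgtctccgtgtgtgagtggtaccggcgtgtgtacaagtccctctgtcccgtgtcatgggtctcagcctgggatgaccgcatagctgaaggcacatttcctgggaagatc
Cox7c, a complex IV subunit spliced from chr13:86184421-86186509 (minus strand), occurs whole and without introns at chr11:75413268-75413456, where the annotation places Gm12338. Ndufs5, a complex I subunit at chr4:123389953-123395445 (minus strand), is printed for its first 300 coding bases and shares 72.5% of its coding windows with chr16:42955744-42956061, annotated as BC002163. Cox6b1, the complex IV subunit at chr7:31401993-31411170 (minus strand), shares no coding window.

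The counts differed widely between these genes. Cox6b1 was at 179, 127, 135 and 132 CPM in ErbB4+/+ replicates 1 to 4 and 133, 124, 138 and 125 CPM in ErbB4-/- replicates 1 to 4. Cox7c was at 6.21, 5.23, 4.82 and 4.70 CPM in ErbB4+/+ replicates 1 to 4 and 5.16, 5.71, 4.17 and 4.45 CPM in ErbB4-/- replicates 1 to 4. Ndufs5 had 0 counts in all 8 libraries, and BC002163 had 12 to 30. For Ndufs5 the limit that a count of 0 allows is 3 counts per library, and why it has none was not tested. In all, 5 of the 80 genes had more than 99% of their coding windows elsewhere. These were Ndufb4 of complex I (mean 3.57 CPM over the 8 libraries), Cox7c (5.06 CPM), and Atp5l (4.49 CPM), Atp5g1 (6.4 CPM) and Atp5g2 (1.23 CPM) of complex V. Atp5l, the g subunit of the membrane part of ATP synthase, has copies of coding windows at 13 other places. How reads that match several places were treated is not given in the sources used here, and levels of these genes cannot be compared with those of other subunits. The other genes with more than 50% of their coding windows elsewhere ranged from Ndufa12 (70.4% of windows, mean 14.3 CPM) and Uqcrb (72.9%, 17.0 CPM) to Atp5f1 (50.1%, 169 CPM). The median was 22.4 CPM per kilobase of coding transcript over the genes above 50% and 81.6 over those below 5%. Across the 80 genes the Spearman correlation between the share of copied windows and CPM per kilobase was -0.16, a description over genes that are not independent.

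**Figure D1:**
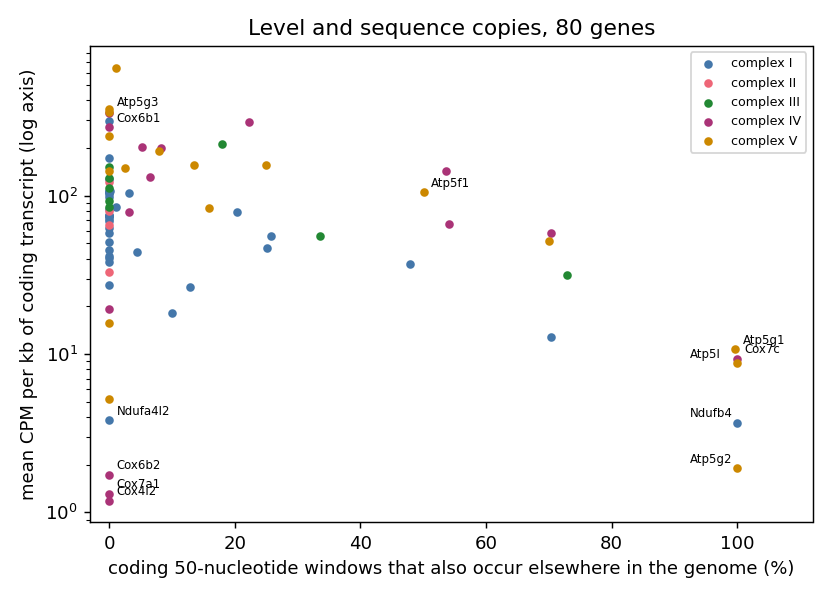
Mean CPM per kilobase of coding transcript over the 8 libraries (log axis) against the percentage of coding windows of 50 nucleotides that also occur elsewhere in mm9, 1 point for each of 80 genes, coloured by complex. The 5 genes at the right edge, with means of 1.23 to 6.4 CPM, have nearly all their coding sequence at another place, while Ndufa4l2, Cox6b2, Cox7a1 and Cox4i2 are low with no coding window elsewhere.

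Between genes, levels were compared as CPM per kilobase of the longest transcript (mean ± SD over 8 libraries). The highest value was that of Atp5b, the catalytic beta subunit of the F1 part of ATP synthase, at 645 ± 46.4, and Atp5a1, its alpha subunit, was at 327 ± 22. In complex IV, Cox4i1, a subunit that regulates the enzyme, was at 336 ± 42.8 and Cox6b1 at 270.3 ± 35.3. In complex I, Ndufa4 was at 299 ± 36.2 and the accessory subunit Ndufb9 at 172 ± 21.4. In complex III, Uqcrh, the hinge protein, was at 144 ± 21.2 and Uqcrc2, core protein 2, at 129.8 ± 6.82, which differ by less than the spread of Uqcrh. The lowest counted pair of kept genes in each complex other than complex II was Cox4i2 (1.18 ± 0.341) and Cox7a1 (1.31 ± 0.659) in complex IV, Atp5g1 (1.36 ± 0.212) and Atp5g2 (1.91 ± 0.279) in complex V, Ndufb4 (3.68 ± 0.576) and Ndufa4l2 (3.81 ± 0.755) in complex I, and Uqcrb (30.1 ± 3.60) and Uqcrq (40.5 ± 5.70) in complex III. Of these, Atp5g1, Atp5g2 and Ndufb4 (over 99% of coding windows elsewhere) and Uqcrb (72.9%) are listed as counted, and their place in the order is not a level of expression. Uqcrq and Atp5g1 rise to 152 and 10.7 when divided by the length of their coding transcript in place of a longer one.

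In the complex IV isoform groups and for Ndufa4, 1 isoform had nearly all of the counts. Cox4i1 was at 299.8, 218, 215 and 219 CPM in ErbB4+/+ replicates 1 to 4 and 219, 216, 219.5 and 216 CPM in ErbB4-/- replicates 1 to 4, and Cox4i2, the isoform known for low-oxygen regulation, had 20 to 41 counts per library. Per kilobase of coding transcript, Cox4i1 was 283-fold above Cox4i2. Cox6a1 was at 215, 165, 153 and 158 CPM in ErbB4+/+ replicates 1 to 4 and 165, 151, 163 and 157 CPM in ErbB4-/- replicates 1 to 4, and its heart and muscle isoform Cox6a2 had at most 2 counts in any library. Cox6b1 was 157-fold above Cox6b2, the testis isoform, per kilobase. Cox7a2 was at 130.2, 92.5, 92.2 and 93.5 CPM in ErbB4+/+ replicates 1 to 4 and 101, 96.5, 95.7 and 92.4 CPM in ErbB4-/- replicates 1 to 4, and was 100.5-fold above its heart and muscle isoform Cox7a1 per kilobase. Cox7a2l, of the same family but a supercomplex factor, was at a mean of 76.5 CPM, with 54.1% of its coding windows elsewhere. Cox7b2 had at most 4 counts, and Cox8b and Cox8c at most 1, in any library, while Cox7b was at a mean of 78.7 CPM and Cox8a at 109 CPM. The heart and muscle isoforms were near 0 in every library. The 7 muscle markers sum to 2.26 to 3.59 CPM over the 8 libraries. Ndufa4 was 78.5-fold above Ndufa4l2 per kilobase. The pericyte and endothelial markers, cells in which Ndufa4l2 is known to be expressed, sum to 188 to 211 CPM. The c subunit of the proton ring is encoded by 3 genes with the same mature protein. Atp5g3 was at 319, 225, 235 and 235 CPM in ErbB4+/+ replicates 1 to 4 and 233, 225, 235 and 230.0 CPM in ErbB4-/- replicates 1 to 4, against means of 6.4 and 1.23 CPM for Atp5g1 and Atp5g2, which have nearly all coding windows elsewhere and are not comparable.

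Summed over its kept genes, each complex stood highest in ErbB4+/+ replicate 1, and the other 7 libraries lay close together. Complex I summed to 2920, 2129, 2186 and 2227 CPM in ErbB4+/+ replicates 1 to 4 and 2230, 2141, 2195 and 2160 CPM in ErbB4-/- replicates 1 to 4. The 3 other ErbB4+/+ libraries averaged 2181 ± 49.2 CPM (SD, n = 3) and the libraries labelled ErbB4-/- 2181 ± 39.3 CPM (n = 4). Complex II summed to 648, 539.8, 576 and 564 CPM in ErbB4+/+ replicates 1 to 4 and 528, 528, 545 and 559 CPM in ErbB4-/- replicates 1 to 4. The 7 libraries other than ErbB4+/+ replicate 1 ranged from 528 to 576 CPM. Complex III summed to 979, 766, 793 and 800.2 CPM in ErbB4+/+ replicates 1 to 4 and 780.2, 770.3, 790.1 and 795 CPM in ErbB4-/- replicates 1 to 4. ErbB4+/+ replicate 1 was 1.25-fold above the mean of the others. Complex IV summed to 1594, 1183, 1185 and 1202 CPM in ErbB4+/+ replicates 1 to 4 and 1205, 1169, 1212 and 1186 CPM in ErbB4-/- replicates 1 to 4. Its ratio was 1.34-fold, as in complex I. Complex V summed to 4162, 3292, 3432 and 3382 CPM in ErbB4+/+ replicates 1 to 4 and 3287, 3187, 3337 and 3338 CPM in ErbB4-/- replicates 1 to 4. Without ErbB4+/+ replicate 1, the ErbB4+/+ and ErbB4-/- means were 560 ± 18.5 and 539.9 ± 15.2 CPM in complex II. In complex V they were 3369 ± 70.9 and 3287 ± 71.0 CPM, lower in ErbB4-/- as in complex II. In complexes III and IV they were 786 ± 18.2 and 784 ± 11 CPM, and 1190 ± 10.3 and 1193 ± 19.4 CPM. Together the 80 genes took 1.03% of the TMM-scaled counts in ErbB4+/+ replicate 1 and 0.779% to 0.818% in the other 7 libraries. Bulk RNA cannot tell fewer cells of a type from less RNA per cell.

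**Figure D2:**
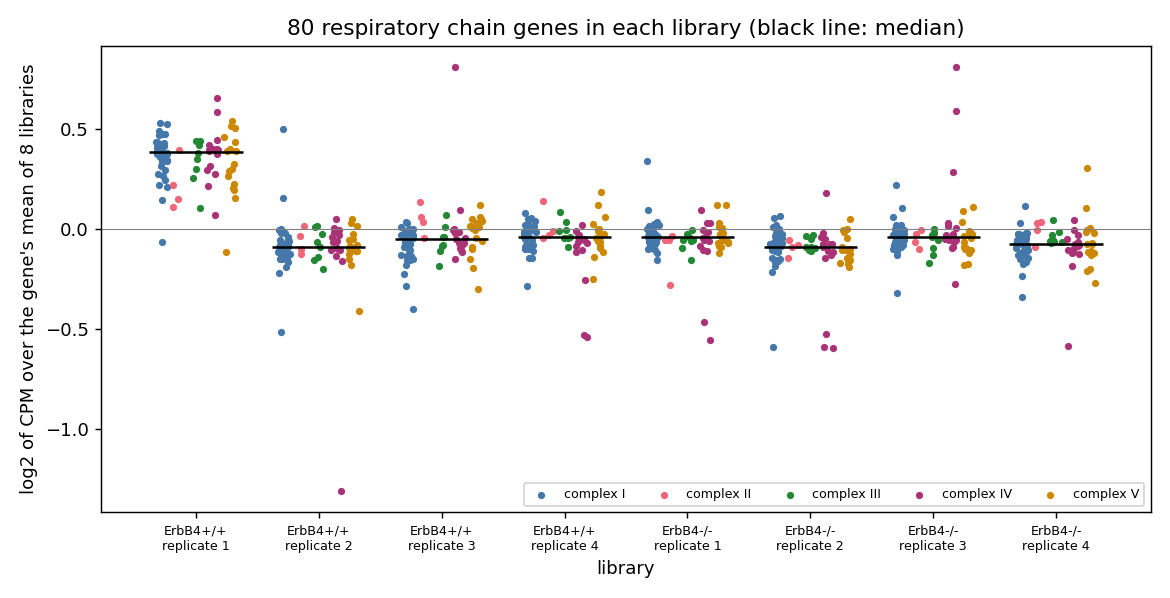
Log2 of CPM over the gene's mean of 8 libraries for 80 genes (points, coloured by complex) in each library, with the median as a black line. The median of ErbB4+/+ replicate 1 stands above 0 and those of the other 7 libraries lie slightly below it.

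In 76 of the 80 genes ErbB4+/+ replicate 1 was the highest of the 8 libraries, against 29.9% of all 14696 genes tested. Its median ratio to the mean of the other 7 libraries, taken on log2 values, was 1.36 (range 0.928 to 1.69), and it lay above them in 78 genes and below in 2, Ndufa4l2 and Atp5g2. Transcript length moved with this. Among coding transcripts under 1000 nucleotides, the median difference of ErbB4+/+ replicate 1 from the other libraries was 0.35 on the log2 scale over 1122 genes tested and 0.47 over the 50 respiratory chain genes. From 1000 to 2000 nucleotides it was 0.19 over all genes and 0.38 over 23 respiratory chain genes. From 2000 to 4000 nucleotides it was 0.01 and 0.21 (6 respiratory chain genes). Over all genes above 4000 nucleotides it was -0.22. The share of all genes highest in ErbB4+/+ replicate 1 also fell with length. It was 66.0% under 1000 nucleotides, against 46 of 50 respiratory chain genes, and 53.4% from 1000 to 2000 nucleotides, against 23 of 23. From 2000 to 4000 nucleotides it was 26.5%, against 6 of 6, and above that 4.28%, against 1 of 1. Classed instead by longest transcript, the 4 chain genes above 4000 nucleotides had a median difference of 0.48, against -0.20 for all genes of that class. Of these, Ndufb2, Ndufb7 and Atp5g1 have coding transcripts of only 455, 623 and 596 nucleotides, and the last, Cox4nb, was at 0.08. Cox4nb, whose coding transcript is 4933 nucleotides long, was at 99.8, 94.3, 95.1 and 91.1 CPM in ErbB4+/+ replicates 1 to 4 and 92.1, 94, 97 and 98.3 CPM in ErbB4-/- replicates 1 to 4. Its neighbour Cox4i1, with a transcript of 679 nucleotides, was raised in ErbB4+/+ replicate 1 as given above. The part of length, RNA quality or any handling of this library in the result was not tested.

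**Figure D3:**
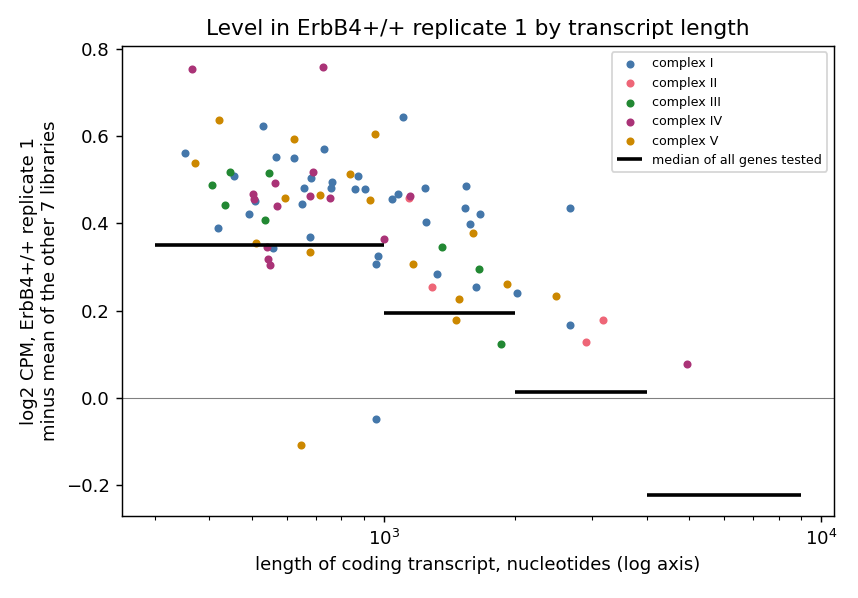
Log2 CPM in ErbB4+/+ replicate 1 minus the mean of the other 7 libraries against length of the coding transcript (log axis), for 80 genes coloured by complex. Black bars give the median of all genes tested in 4 length classes, from 0.35 in the shortest to -0.22 in the longest, and most respiratory chain genes lie above the bar of their class.

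The genotype comparison rested on that library. With all 8 libraries, 76 of the 80 genes had a log2 fold change below 0 in ErbB4-/- (50.8% of all genes tested), and the median was -0.11, against -0.0022 over all genes. No gene of the chain passed an adjusted p of 0.05 (edgeR quasi-likelihood test, Benjamini-Hochberg adjustment over all genes tested, lowest adjusted p = 0.81), and 0.0272% of all genes did. At an unadjusted p under 0.05, 3 genes were lower (2.52% of all genes) and 0 were higher (3.00% of all genes). DESeq2 also called 0 (0.163% of all genes), with 3 at an unadjusted p under 0.05 (6.13% of all genes). Without ErbB4+/+ replicate 1, 41 genes had a log2 fold change below 0 and 39 above (50.6% of all genes were below), the median was -0.00075, and 70 of the 80 were within 0.1 of 0. In that fit 0 genes passed the adjusted threshold (0.0404% of all genes did), and 2, both lower, had an unadjusted p under 0.05 (2.71% of all genes were lower at that p). The median standard error of the log2 fold change fell from 0.10 to 0.05. By complex, the medians over all 8 libraries were -0.11 for complex I, -0.10 for complex II, -0.12 for complex III, -0.10 for complex IV and -0.11 for complex V. Without ErbB4+/+ replicate 1 they were 0.00065, -0.02, 0.0028, 0.0034 and -0.02.

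**Figure D4:**
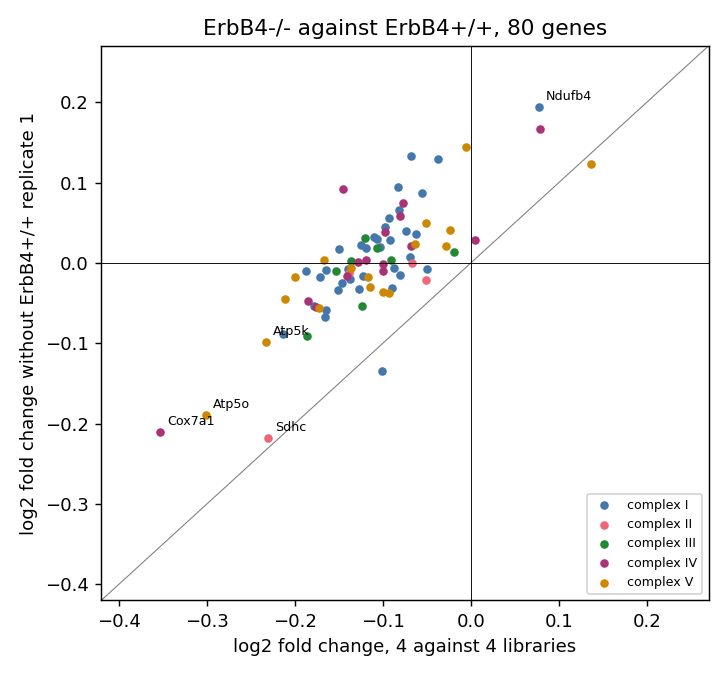
Log2 fold change of ErbB4-/- against ErbB4+/+ for 80 genes with all 8 libraries (x axis) and without ErbB4+/+ replicate 1 (y axis), coloured by complex, with the line of equality. The genes spread around 0 on the y axis and 76 of the 80 lie below 0 on the x axis, and Sdhc stays near the line.

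The libraries of the genotypes did not overlap in 3 of the 80 genes, Sdhc, Atp5o and Atp5k, all lower in those labelled ErbB4-/-. Of all genes tested, 1.48% did not overlap in that direction. The absence of overlap by itself fixes an exact two-sided permutation p at 0.0286, the smallest that 4 against 4 libraries allow, so that test adds nothing. These are also the 3 genes with an unadjusted p under 0.05, so the counts are not independent.

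**Figure D5:**
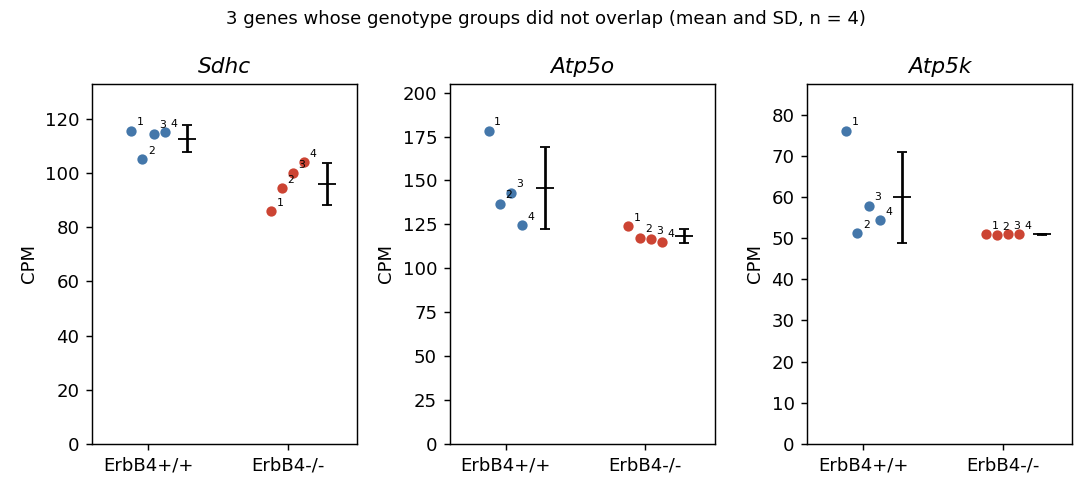
CPM of Sdhc, Atp5o and Atp5k in each library (points numbered by replicate) with the mean and SD of each genotype (n = 4). All ErbB4-/- values lie below all ErbB4+/+ values, with ErbB4+/+ replicate 1 highest in each.

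Complex II, or succinate dehydrogenase, belongs to the respiratory chain and the citric acid cycle, and has no mitochondrially encoded subunit. Sdhc, one of its membrane anchors, was at 116, 105, 115 and 115 CPM in ErbB4+/+ replicates 1 to 4 and 86.1, 94.5, 100 and 104 CPM in ErbB4-/- replicates 1 to 4. The lowest ErbB4+/+ library, replicate 2, lay just above the highest ErbB4-/- library, replicate 4. The log2 fold change was -0.23 (SE 0.066, unadjusted p = 0.00488, edgeR adjusted p = 0.81). It was -0.22 without ErbB4+/+ replicate 1 and -0.26 among the 5 libraries with the low-Xist pattern, where 1 ErbB4+/+ library remained. Sdha, the flavoprotein that oxidizes succinate, was at 252, 227, 239 and 231 CPM in ErbB4+/+ replicates 1 to 4 and 225, 220.0, 232 and 238 CPM in ErbB4-/- replicates 1 to 4. Sdhb, the iron-sulfur subunit, was at 183, 129.9, 135 and 136 CPM in ErbB4+/+ replicates 1 to 4 and 136, 134, 129.9 and 131 CPM in ErbB4-/- replicates 1 to 4. Sdhd, the other membrane anchor, was at 98.1, 77.4, 87.9 and 81.7 CPM in ErbB4+/+ replicates 1 to 4 and 81.2, 79.2, 83.0 and 86.0 CPM in ErbB4-/- replicates 1 to 4. In these 3 genes the genotypes overlapped, with log2 fold changes of -0.05, -0.14 and -0.07, which were -0.02, -0.01 and -0.00044 without ErbB4+/+ replicate 1.

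Sdhc lies on chromosome 1, as does Erbb4 (chr1:68078760-69154633, mm9), but 103.9 Mb away at chr1:173057296-173080734. Another 4 genes of the chain on chromosome 1 are given here. The nearest, Ndufs1, an iron-sulfur core subunit of complex I, lies 4.86 Mb from Erbb4 and was at -0.05 on the log2 scale (SE 0.057). Ndufb3 at 9.43 Mb was at -0.09 (SE 0.12), Ndufa10 at 25.2 Mb at -0.09 (SE 0.064) and Cox5b at 31.3 Mb at -0.08 (SE 0.12). Without ErbB4+/+ replicate 1 the values of these 4 genes ranged from -0.03 for Ndufa10 to 0.07 for Cox5b, and none had an adjusted p under 0.05 in edgeR's test.

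In complex V, Atp5o encodes OSCP, which joins the F1 part to the peripheral stalk. It was at 178, 137, 143 and 124 CPM in ErbB4+/+ replicates 1 to 4 and 124, 117, 116 and 115 CPM in ErbB4-/- replicates 1 to 4. ErbB4+/+ replicate 4 lay within 1 CPM of ErbB4-/- replicate 1. The log2 fold change was -0.30 (SE 0.093, unadjusted p = 0.00747, edgeR adjusted p = 0.81), -0.19 without ErbB4+/+ replicate 1 and -0.08 among the 5 libraries with the low-Xist pattern. Atp5o shares 24.9% of its coding windows with another place. It lies on chromosome 16, where Dnajc28, 65.4 kb away, was at -1.39 on the log2 scale (SE 0.29) and Tmem50b, 86.6 kb away, at -0.93 (SE 0.198), both with an edgeR adjusted p of 0.533. These neighbours were picked after their values were seen. ErbB4+/+ replicate 4 had 4.19 CPM of Dnajc28 and 39.0 CPM of Tmem50b, near the libraries labelled ErbB4-/- (3.49 to 4.03 and 35.2 to 38.9 CPM) and below ErbB4+/+ replicates 1 to 3 (9.13 to 14.1 and 71.2 to 90.8 CPM). At these genes the libraries divided as they did by Xist and not by genotype label, a split that rests on 1 library, ErbB4+/+ replicate 4. The annotated span of Atp5o (chr16:91684643-91931932, mm9) overlaps Donson, Cryzl1 and Itsn1, and without strand their reads cannot be told apart where exons overlap. Donson and Cryzl1 were at -0.08 (SE 0.069) and 0.07 (SE 0.076). Itsn1, at 308 to 420.2 CPM the most abundant of them, was at -0.18 (SE 0.092) and at -0.25 without ErbB4+/+ replicate 1.

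Atp5k encodes the e subunit, which lies in the membrane part and helps hold ATP synthase dimers together. It was at 76.2, 51.3, 57.9 and 54.4 CPM in ErbB4+/+ replicates 1 to 4 and 51.0, 50.8, 51.0 and 51.1 CPM in ErbB4-/- replicates 1 to 4. The 4 libraries labelled ErbB4-/- were within 1 CPM of each other, and ErbB4+/+ replicate 2 lay only just above them. The log2 fold change was -0.23 (SE 0.106, unadjusted p = 0.0483, edgeR adjusted p = 0.81). It was -0.10 without ErbB4+/+ replicate 1 (edgeR unadjusted p = 0.0795) and -0.095 among the 5 libraries with the low-Xist pattern. With relative log expression or upper-quartile normalization, the edgeR unadjusted p was 0.0505 or 0.0567. Of the other complex V genes, Atp5b was at 1445, 1194, 1242 and 1237 CPM in ErbB4+/+ replicates 1 to 4 and 1177, 1160, 1218 and 1220 CPM in ErbB4-/- replicates 1 to 4. Atp5b had a log2 fold change of -0.10 with all libraries and -0.04 without ErbB4+/+ replicate 1.

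The remaining genes with the most negative or most positive log2 fold changes were of low count or at the level of no difference. Cox7a1, the lowest at -0.35 (SE 0.44), had 6 to 32 counts per library and was at 0.713, 0.193, 0.834 and 0.399 CPM in ErbB4+/+ replicates 1 to 4 and 0.325, 0.316, 0.717 and 0.318 CPM in ErbB4-/- replicates 1 to 4. Its genotypes overlapped, and its log2 fold change rests on single libraries. Leaving out replicate 1, 2 or 3 of ErbB4+/+ gave -0.211, -0.622 and -0.028 in turn, and leaving out replicate 1 or 3 of ErbB4-/- gave -0.231 and -0.745. Atp5g2, the highest at 0.14 (SE 0.199), was at 1.14, 0.930, 1.28 and 1.34 CPM in ErbB4+/+ replicates 1 to 4 and 1.24, 1.09, 1.33 and 1.52 CPM in ErbB4-/- replicates 1 to 4. Its log2 fold change became 0.043 or 0.207 when replicate 2 or 4 of ErbB4+/+ was left out, and 0.208 or 0.052 when replicate 2 or 4 of ErbB4-/- was. Cox6b2 was at 0.08 (SE 0.32), Ndufb4 at 0.08 (SE 0.17) and Cox4nb at 0.0040 (SE 0.052). With a library left out they reached -0.315, -0.029 and -0.016 in turn. With all 8 libraries, none of the genes in this paragraph differed from 0 by more than its standard error.

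Other genes for mitochondria, cytosolic ribosomal protein genes and glycolysis genes give the comparison for the chain. All 5 chain genes outside the symbol rule that were tested (Ndufab1, Cyc1, Cycs, Usmg5 and Atpif1) had a log2 fold change below 0, and 0 passed the adjusted threshold. Assembly factors had 21 of 27 below 0 with 0 called, and a median of -0.08. Regulators of mitochondrial biogenesis had 10 of 14 below 0, with a median of -0.06, and citric acid cycle genes 14 of 16, with a median of -0.05. Mitochondrial ribosomal proteins had 74 of 76 below 0, with a median of -0.11, and cytosolic ribosomal proteins 74 of 80, with a median of -0.13. Glycolysis genes had 14 of 19 below 0 and a median of -0.06. None of the genes in these lists had an adjusted p under 0.05, and 1 assembly factor, 0 biogenesis regulators, 1 cycle gene, 7 mitochondrial and 0 cytosolic ribosomal protein genes and 3 glycolysis genes had an unadjusted p under 0.05 (5.53% of all genes did). Without ErbB4+/+ replicate 1 the medians were between -0.03 for the mitochondrial ribosomal proteins and 0.03 for the chain genes outside the rule. ErbB4+/+ replicate 1 was the highest library in 71 of 76 mitochondrial and 69 of 80 cytosolic ribosomal protein genes, in 13 of 16 citric acid cycle genes (median transcript 2520 nucleotides), in 16 of 27 assembly factors (2461 nucleotides), in 10 of 19 glycolysis genes (2607 nucleotides) and in 7 of 14 biogenesis regulators (4098 nucleotides), against 29.9% of all genes. The median transcript was 967 nucleotides for the chain genes, 1300 for the mitochondrial and 946 for the cytosolic ribosomal protein genes. Differences between the lists in this count were not tested.

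The promoters of the chain genes were searched for short motifs. RefSeq promoters (GRCm38.p6, 250 bases before to 50 after the start of transcription) were matched for 66 of the 80 genes. Letters were searched on both strands, and a gene was counted where any of its promoters held them. The NRF1 motif GCGCATGCG was in 8 of the 66 genes (12.1%) and in 1.95% of 27025 genes. The ETS motif CCGGAAG, bound by GABP, was in 16 (24.2%) and in 9.93% of all genes. The YY1 motif AAGATGGCG was in 8 (12.1%) and in 1.64% of all genes, and TATAAA in 5 (7.58%) and in 15.7% of all genes. The 8 genes with the YY1 motif include Atp5sl, which is not a subunit. The letters for NRF1 and YY1 were shortened after longer forms had been counted. The 27025 genes also include genes not tested for expression here, so the shares are a description and not a test. NRF1, GABP and YY1 are known regulators of nuclear genes for mitochondria. The NRF1 and ETS motifs occurred together in Uqcr11, Cox6a1, Atp5l and Atp5k, and Atp5o held none of the motifs searched. The promoter of Atp5k is shown as an example with 2 of the motifs, in capitals, from chr5:108434350-108434649 (GRCm38.p6, minus strand).
Atp5k: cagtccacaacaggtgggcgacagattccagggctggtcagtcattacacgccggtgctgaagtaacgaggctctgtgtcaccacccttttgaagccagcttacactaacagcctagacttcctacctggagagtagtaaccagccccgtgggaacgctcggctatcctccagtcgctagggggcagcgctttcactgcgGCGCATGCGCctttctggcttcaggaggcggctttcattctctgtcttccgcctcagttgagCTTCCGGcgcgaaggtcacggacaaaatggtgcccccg
The first run of capitals is the NRF1 motif matched on both strands, and the later run is the ETS motif on the opposite strand. These matches describe the letters only.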

How the data were processed

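Per the labels and the study's methods, the authors aligned single-end reads of 50 nucleotides to mm9 (HISAT), and HTSeq-count gave the counts for each gene. The deposited files hold raw counts, 1 whole number per gene symbol, with no normalization. The annotation, the counting mode and the handling of reads with several matches are not given in the sources used here. The authors' deposited DESeq2 table, with fold changes and p-values of their own comparison, was not used.

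The genes of the chain and all other lists were chosen with earlier results of these data known. The test was that of edgeR 4.0.16, run in R 4.3.3 (TMM, filterByExpr with a minimum count of 10 and minimum total of 15, quasi-likelihood test) over 14696 genes, with Benjamini-Hochberg adjustment and a threshold of 0.05. Log2 CPM used a prior count of 2. All fold changes are ErbB4-/- against ErbB4+/+. Counting error is part of the fit, and depth limits genes with few counts. On simulated data for this comparison (14596 genes), edgeR recovered 86 of 100 genes changed by 1 on the log2 scale and 55 of 100 changed by 0.5, with 13 false calls. Each gene was drawn independently, so the simulation held no shift shared by many genes in 1 library. Changes as small as the median of the chain genes, -0.11, were not simulated, and recovery at that size is not known.

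Genes named with values follow a fixed rule: all Sdh genes, the highest and lowest 2 per complex by CPM per kilobase of longest transcript, the 4 largest and 4 smallest fold changes, genes whose genotypes did not overlap or with an unadjusted p under 0.05, isoform groups, and genes on chromosome 1. A gene that this rule names is not reported here. Lengths and positions came from GENCODE for NCBIM37. The alternatives were DESeq2 1.42.0, relative log expression and upper-quartile normalization, other filters, the replicate number as a block, a length trend removed, Xist as a covariate, assembled subunits only and each library left out. The letters of the promoter motifs for NRF1 and YY1 were shortened after longer forms had been counted. The 5 libraries with the low-Xist pattern and the coding transcript length were added after the data were seen.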

Additional observations from a re-analysis of the deposited data

Results flagged for a closer look

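Within a group of 4 libraries, a value was marked when its gap to the nearest other library, divided by the range of the group, passed Dixon's critical value. Of 76 groups examined, 16 were marked, and about 1 in 20 groups is marked by chance. In 12 of the 16 the library was ErbB4+/+ replicate 1, standing above the rest of its group. These were the sums of complex I (2920 CPM), complex III (979 CPM), complex IV (1590 CPM) and complex V (4160 CPM), and Atp5g3 (319 CPM), Cox4i1 (300 CPM), Cox5b (44.1 CPM), Cox6b1 (179 CPM), Cox7a2 (130 CPM), Sdhb (183 CPM), Uqcrb (21.7 CPM) and Uqcrh (157 CPM). The genes and sums share the same library and are not separate observations. In the libraries labelled ErbB4-/-, Cox5b stood high in replicate 1 (35.2 CPM), Cox7a1 stood high in replicate 3 (0.717 CPM) and Atp5k stood low in replicate 2 (50.8 CPM). Among the ErbB4+/+ libraries, Sdhc stood low in replicate 2 (105 CPM).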

How the results depend on the processing

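No alternative gave an adjusted p under 0.05 for any of the 80 genes. DESeq2, the other normalizations and the other filters kept the number of genes above 0 and the median close to the values in the report. With the length trend removed, 25 genes were above 0 and the median was -0.033. With the replicate block and the length trend removed together, 24 genes were above 0 and the median was -0.031. With Xist as a covariate, 21 genes were above 0, the median was -0.048 and 1 gene had an unadjusted p under 0.05 (1.67% of all genes). In the 5 libraries with the low-Xist pattern, where 1 ErbB4+/+ library faced 4 and was assumed to vary like the others, 30 genes were above 0, the median was -0.023 and 1 gene had an unadjusted p under 0.05 (4.79% of all genes). In the main fit replicate numbers served only as names and not as pairs. Correlations of deviations between same-numbered libraries were 0.0837, 0.135, 0.0476 and 0.0236. They were not set against those of differently numbered libraries, so they cannot tell whether libraries of 1 number are paired. The replicate block gave 5 genes with an unadjusted p under 0.05 (6.97% of all genes), against 3 (5.53%) without it. Leaving out each library in turn, genes above 0 numbered 2 (ErbB4-/- replicate 3 left out) to 39 (ErbB4+/+ replicate 1 left out), the median was lowest at -0.156 with ErbB4+/+ replicate 2 left out and highest at -0.00075 with ErbB4+/+ replicate 1 left out, genes with an unadjusted p under 0.05 from 2 to 7 (without ErbB4+/+ replicate 2, where 9.40% of all genes did, and 6 without ErbB4+/+ replicate 3, where 5.78% did), and genes with no overlap from 3 to 9. Without ErbB4+/+ replicate 1 there were 6 such genes (5.96% of all genes), without ErbB4+/+ replicate 2 there were 9 (9.55%), without ErbB4+/+ replicate 3 there were 6 (7.16%), and without ErbB4-/- replicate 4 there were 5 (9.95%). With a library fewer in a group, these shares are not comparable with the 1.48% of the full comparison, which covers the lower direction only. Beyond the shift in the number of genes above 0, 5 of the 8 genes named for their fold change turned direction under some setting, with no adjusted p under 0.5. Cox4nb was -0.033 with the length trend removed and -0.030 with the block as well, and -0.016 to 0.028 with a library left out. Cox6b2 ranged from -0.315 to 0.227 and Ndufb4 from -0.029 to 0.194 with a library left out. With Xist as a covariate these 2 genes were at 0.552 and 0.301, and in the low-Xist libraries at 0.572 and 0.317. Atp5g2 was -0.048 with Xist as a covariate and -0.049 in the low-Xist libraries, and Cox7a1 was 0.044 and 0.074. The causes were not tested. Of 16 genes named as highest or lowest in their complex, 11 were so by CPM alone and 12 by coding transcript length.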

Other observations

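Ndufa12, an accessory subunit of complex I picked out after its values were seen, varied with the replicate number of the labels. It was at 20.6, 10, 13.3 and 14.9 CPM in ErbB4+/+ replicates 1 to 4 and at 18.1, 9.51, 14 and 14.1 CPM in ErbB4-/- replicates 1 to 4. On the log2 scale the means of same-numbered libraries ranged over 0.98, while the largest gap between libraries of 1 number was 0.18. Ndufa12 has 70.4% of its coding windows at chr5:130664263-130664641 (mm9), annotated as Gm15920. Cox7a1 had a wider range over the numbers, 1.45, but with a gap of 1.02 within a number. Nothing in the labels says what a number shares, and the part of the copy or of the number was not tested.

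The genes of the chain on the X chromosome were Ndufa1, Ndufb11 and Cox7b. With all 8 libraries, the log2 fold change was -0.07 for Ndufa1, -0.14 for Ndufb11 and -0.10 for Cox7b. Leaving out ErbB4+/+ replicate 1 turned Ndufa1 to 0.04 and moved Ndufb11 to -0.0078 and Cox7b to -0.0011, with the Xist pattern still differing between the remaining libraries.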
